A study of Mus musculus with 72 samples.

Results

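The Dlk1-Meg3 domain is a stretch of mouse chromosome 12 whose genes are imprinted, so that each is read mainly from the copy of 1 parent. It was described here through 6 genes, Dlk1, Meg3, Rian, Mirg, Rtl1 and Dio3, found by matching the Ensembl identifiers of the count table to their symbols. All 6 were found among the 55416 genes of the table. They were selected on the liver readout: Meg3 and Rian had been seen to be higher in the liver of mice fed a high fat diet. The liver diet comparison of these genes is therefore given as a description only. Where counts of genes called in it are printed, nothing is read from them. Their values in pituitary and epididymal white adipose tissue (eWAT), and the effect of maternal feeding, are not named in the rule that selected them, although earlier results of these data were known when it was made.

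The samples were RNA sequencing libraries of the pituitary, eWAT and liver of 24 adult male mice, 72 libraries in all. All mice were FVB.129P2-Pde6b+ Tyrc-ch/AntJ, a sighted FVB strain with no transgene. The dams ate freely (FED) or, from embryonic day 15 to the end of lactation, received 20% less food (CR20), and pups were weaned on postnatal day 21. From 8 weeks of age the sons ate a purified diet with 10% of calories from fat (CTRL, TD.110675) or 45% from fat (HFD, TD.06415). The labels allow 10 or 16 weeks of diet, and the paper's results give 10 weeks for the sequenced mice. This made 4 groups of 6 mice, FED-CTRL, FED-HFD, CR20-CTRL and CR20-HFD, each with all 3 tissues. The litters of single mice were not given and each dam's pups were divided between diets, so the tests below treat littermates, if any, as independent mice.

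In this domain the protein-coding genes Dlk1, Rtl1 and Dio3 are expressed mainly from the paternal chromosome, and the long noncoding RNAs Meg3, Rian and Mirg mainly from the maternal one. The noncoding genes lie in 1 direction along the chromosome, carry snoRNA and microRNA genes in their introns and between them, and are thought to be parts of a long maternal transcript. Dlk1 is a membrane protein of the Notch ligand family that holds back the maturation of fat cell precursors and is abundant in the pituitary. Dio3 is the deiodinase that inactivates thyroid hormone, and Rtl1 is a retrotransposon-derived protein of placenta and muscle. The adult liver is known to express the domain at low levels.

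On GRCm39 the 6 genes spanned 828.8 kb. Dlk1 (ENSMUSG00000040856) lay at chr12:109418749-109429262 on the plus strand, and Meg3 (ENSMUSG00000021268) at chr12:109506877-109538165, also plus, its start 88.1 kb past that of Dlk1. Rian (ENSMUSG00000097451, chr12:109570242-109628150, plus) began 32.1 kb past the end of Meg3. Mirg (ENSMUSG00000097391, chr12:109696198-109715898, plus) began 68.0 kb past the end of Rian. Dio3 (ENSMUSG00000075707, chr12:110245502-110247531, plus) lay a further 529.6 kb on. Rtl1 (ENSMUSG00000085925, chr12:109555627-109582007) was the exception in strand: it is read from the minus strand, and its span overlapped that of Rian by 11766 bases, with 0 exon bases in common. Of 128 annotated genes between the outer ends of Dlk1 and Dio3, 115 were in the count table, among them 67 microRNA genes, 23 snoRNA genes and 11 long noncoding RNA genes.

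**Figure D1:**
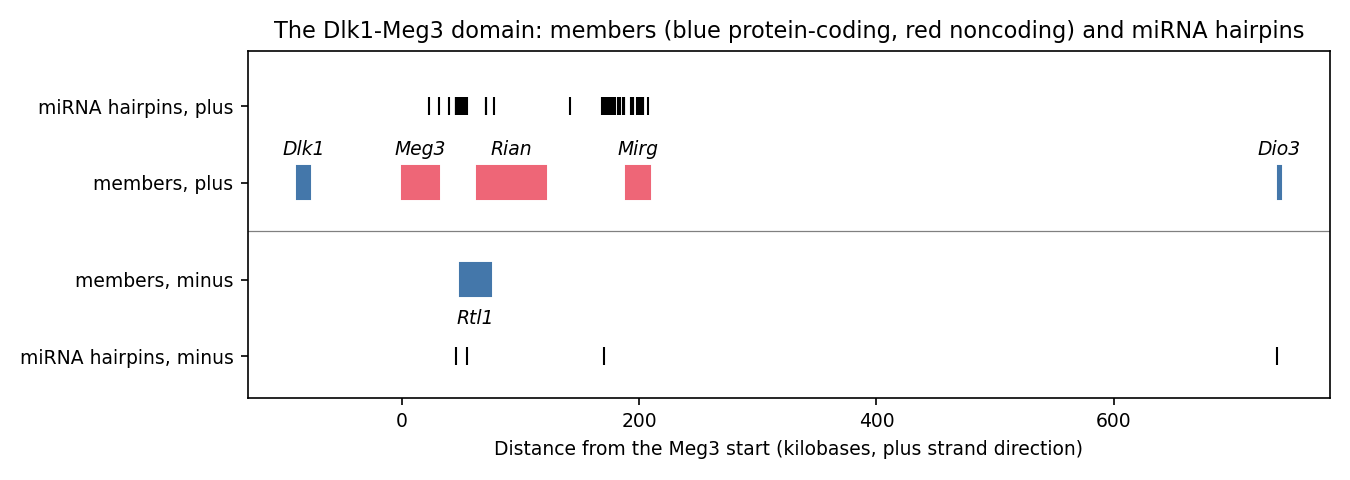
Map of the domain drawn to scale, with distance from the start of Meg3 in kb on the x axis, the 6 genes on the strand they are read from, and the microRNA hairpins as ticks. The hairpins lie from 23.25 to 737.6 kb past the start of Meg3, most of them between the genes.

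The Meg3 promoter is shown because Meg3 is the gene with the highest liver count of the domain. The sequence is RefSeq's for GRCm38.p6, chr12:109540746-109541045, plus strand, which matched GRCm39 at chr12:109506629-109506928. It holds 250 bases before the start site and 50 after it, and the capitals mark the letters found for the motifs named next.
Meg3 promoter: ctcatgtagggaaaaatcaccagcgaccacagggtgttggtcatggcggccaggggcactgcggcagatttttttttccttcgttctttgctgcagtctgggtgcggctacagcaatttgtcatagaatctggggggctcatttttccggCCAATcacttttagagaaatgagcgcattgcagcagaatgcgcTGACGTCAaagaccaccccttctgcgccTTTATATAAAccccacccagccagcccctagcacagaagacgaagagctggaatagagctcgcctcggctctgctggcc
Read from the 5′ end, the capitals are CCAAT at positions -100 to -96, the cyclic AMP response element TGACGTCA at -57 to -50, and TATAAA on the minus strand at -29 to -24 overlapping TATAAA on the plus strand at -25 to -20. Both strands were searched for these letters and for GGGCGG, which was not in this window. TGACGTCA reads the same on both strands and was in 1.79% of 32851 RefSeq promoters of the same length. TATAAA was in 13.6% of them, CCAAT in 37.4% and GGGCGG in 35.7%. A match gives letters only, and no factor binding was measured.

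The part of the Dlk1 promoter before its start site is shown for comparison, since Dlk1 and Meg3 had the highest pituitary levels of the domain. It was taken from the same source and build as the 250 bases that precede the start at GRCm39 chr12:109418749, plus strand, and held none of the 4 motifs.
Dlk1 upstream: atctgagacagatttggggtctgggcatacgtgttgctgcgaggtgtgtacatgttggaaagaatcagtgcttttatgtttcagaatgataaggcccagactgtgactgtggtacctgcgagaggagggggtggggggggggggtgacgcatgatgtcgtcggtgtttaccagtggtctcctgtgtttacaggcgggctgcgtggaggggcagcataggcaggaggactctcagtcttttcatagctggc
The promoter window of Dio3 held 1 TATAAA, 2 CCAAT and 4 GGGCGG, that of Mirg held 1 CCAAT, and that of Rian none of the 4. A second Meg3 window that RefSeq lists, inside the gene, held none of them either. In all, 5 of the 6 genes matched a RefSeq promoter.

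The microRNAs of the domain are shown because Meg3, Rian and Mirg are known as their hosts, although these libraries hardly read them. RefSeq listed 58 hairpins with 108 mature names and 99 different seeds in the domain, the seed being bases 2 to 8, printed in capitals. Of the hairpins, 1 lay within Meg3, 3 within Rian and 14 within Mirg on the host's own strand, and 33 lay outside the 6 genes on either strand. The first lines give 1 from each host and 2 from the strand opposite an Rtl1 exon, where 6 hairpins lie whose microRNAs are known to pair with the Rtl1 RNA.
miR-770-5p (Meg3): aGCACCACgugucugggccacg
miR-370-3p (Rian): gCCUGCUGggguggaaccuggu
miR-410-5p (Mirg): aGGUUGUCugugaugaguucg
miR-127-3p (opposite Rtl1): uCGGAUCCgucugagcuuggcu
miR-136-5p (opposite Rtl1): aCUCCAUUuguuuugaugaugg
Seeds were shared by 2 or more mature names in 9 cases. The miR-410-5p seed above recurred in miR-494-5p, and 2 further pairs show the same for hairpins that lie apart on the chromosome.
miR-494-5p: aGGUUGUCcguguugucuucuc
miR-379-5p: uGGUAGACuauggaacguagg
miR-1193-5p: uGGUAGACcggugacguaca
miR-1193-3p: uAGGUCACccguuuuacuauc
miR-370-5p: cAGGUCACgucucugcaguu
The highest count of any microRNA gene of the domain in a library was 19 in pituitary, 4 in eWAT and 0 in liver, and of any snoRNA gene 16, 4 and 2. Levels of these small RNAs could therefore not be compared here.

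Library totals ranged from 9842813 to 27601208 counts, and 3 counts, taken as the floor of detection, equalled 0.109 to 0.164 CPM (counts per 1000000 counts of the library) in pituitary, 0.134 to 0.259 in eWAT and 0.151 to 0.305 in liver. Liver libraries of CTRL mice were deeper (median 17213134) than those of HFD mice (13229023.5). Gh, the growth hormone gene of pituitary somatotropes, was at 206700 CPM or more in every pituitary, the 6 adipocyte markers summed to at least 4914 CPM in every eWAT library, and the 5 hepatocyte markers to at least 64789 CPM in every liver, as the labels say. In eWAT, markers of epididymis and testis summed to 132, 62.0 and 26.5 CPM in mice 4, 5 and 6 (the labels' animal numbers), mouse 13 had 25.0 CPM of neuron markers, and mice 23 and 5 had the lowest adipocyte sums, 4914 and 7909 CPM. For several results in eWAT, the values without these libraries are therefore given as well. In bulk tissue, fewer cells of a type and less RNA per cell cannot be told apart.

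The domain was read at very different levels in the 3 tissues, and its genes did not share 1 order of tissues. Levels are given here as CPM per kb of merged exons after joint normalization of all libraries, as mean ± SD over 24 mice. In pituitary, Dlk1 was at 421 ± 49.98, Meg3 at 27.9 ± 13.4, Rian at 6.76 ± 1.33, Rtl1 at 1.63 ± 0.315, Mirg at 1.49 ± 0.553 and Dio3 at 0.0438 ± 0.0361. Every step in this order exceeded the spread except Rtl1 and Mirg, which lay within their SDs of each other and changed places when the longest transcript was used as the length. With that length the levels of Meg3 (41.4 ± 20.2) and Rian (29.9 ± 6.19) also overlapped within their SDs. In eWAT, Meg3 came first at 1.88 ± 0.901, followed by Rian at 0.458 ± 0.223. With the longest transcript as the length these were 3.07 ± 1.51 and 2.23 ± 1.12, within their SDs of each other. Dio3 (0.222 ± 0.160), Dlk1 (0.106 ± 0.112) and Mirg (0.0948 ± 0.0532) did not differ beyond their spread, and Rtl1 was at 0.0288 ± 0.0208.

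In liver, over all mice, Meg3 was at 0.545 ± 0.911 and Rian at 0.137 ± 0.214, with SDs larger than the means. Dio3 (0.0681 ± 0.0983), Mirg (0.0393 ± 0.0565) and Dlk1 (0.0130 ± 0.0132) also varied as much as their levels, and Rtl1 gave 1 count over all 24 livers. The order of the genes thus changed between tissues: Dlk1, the first in pituitary, was below Meg3 and Rian in eWAT. Its mean was below theirs in liver too, within spreads that overlapped. The liver means pool diets that differ, and in CTRL livers, where these genes held few counts, no order of Meg3, Rian and Dio3 is read.

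**Figure D2:**
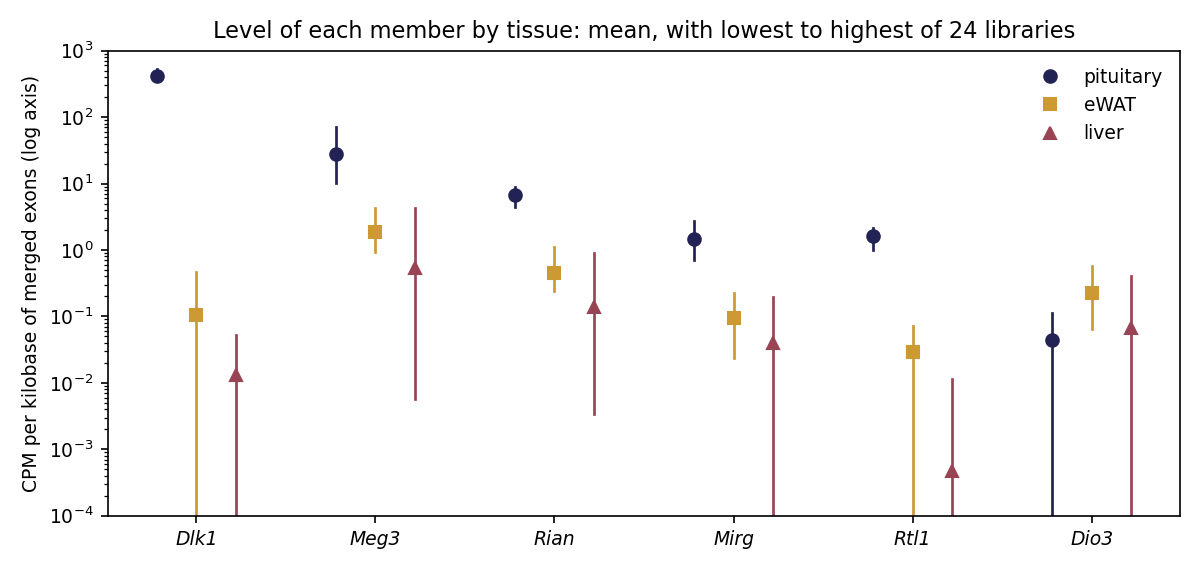
Level of each gene by tissue, as CPM per kb of merged exons on a log axis. The mean is marked, with a line from the lowest to the highest of 24 mice per tissue. Lowest levels of 0 are drawn at the lower end of the axis. Dlk1 falls from 421 in pituitary to 0.106 in eWAT, whereas Dio3 is the 1 gene with its highest level in eWAT.

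Within single mice, Dlk1, Meg3, Rian, Mirg and Rtl1 were each higher in pituitary than in eWAT in 24 of 24 mice. The median ratio was close for the noncoding RNAs, at 13.5 for Meg3, 15.9 for Rian and 14.7 for Mirg. Dio3 went the other way, with 239 counts over the eWAT and 52 over the pituitary libraries. Since 16 of 24 pituitaries held fewer than 3 Dio3 counts, no ratio is given for it. The step from eWAT to liver depended on the diet and on the scaling. Meg3 was higher in eWAT than in liver in 12 of 12 CTRL mice with a median ratio of 22.7, and in 10 of 12 HFD mice with a median of 1.54. Rian was higher in eWAT in 12 of 12 CTRL mice (17.3) and 9 of 12 HFD mice (2.22). On plain CPM, without the joint normalization, the ratios were 38.96 and 2.68 for Meg3 and 30.5 and 3.82 for Rian, and eWAT was higher in 11 of 12 HFD mice for both.

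Relative to Meg3, the summed counts of Rian, the next RNA downstream, were a similar share in the 3 tissues, while those of Dlk1 were not. Rian counts summed over mice were 40.5% of Meg3 counts in pituitary, 40.8% in eWAT and 41.0% in liver, and the medians over single mice were 48.1%, 41.4% and 42.5%. The liver median pools diets that differ, with 64.8% over CTRL and 35.4% over HFD livers. Mirg counts were 2.70%, 2.54% and 3.56% of Meg3 counts. Dlk1 counts were 475% of Meg3 counts in pituitary, 1.64% in eWAT and 0.739% in liver. The liver values are mainly those of HFD mice, and mouse 7 alone held 1065 of the 2840 Meg3 counts. Without it the liver shares were 44.6% for Rian, 4.34% for Mirg and 1.13% for Dlk1. By diet, Mirg was 6.34% of Meg3 in CTRL and 3.34% in HFD livers, but mouse 5 held 6 of the 13 Mirg counts of CTRL livers and without it the CTRL share was 3.50%. Dlk1 was 5.37% in CTRL livers, from 11 counts (3.91% to 6.59% with 1 liver left out), above its share in eWAT, and 0.380% in HFD livers. Pituitary markers, led by Gh, summed to 0.864 to 22.9 CPM in the CTRL livers. Whether pituitary RNA has a part in these few Dlk1 counts was not tested, so no order of tissues is read from them. These shares are descriptions of summed counts, and single libraries varied around them: the Rian share ran from 18.4% to 72.5% in pituitary, from 23.6% to 58.3% in eWAT and from 17.6% to 167% in liver, where the CTRL libraries held 1 to 38 Meg3 counts each. The Mirg share ran from 0.893% to 4.58%, from 0.782% to 5.32% and from 0% to 120%.

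Between groups, the summed Rian share in eWAT stayed between 40.0% and 41.7%. In pituitary it was 32.4% in FED-CTRL, 38.6% in FED-HFD, 44.4% in CR20-CTRL and 51.4% in CR20-HFD mice. This share also went with the labels' animal number, at 18.4% to 49.7% in the 11 mice numbered under 20, 29.8% to 72.5% in the 5 numbered 20 to 39 and 47.4% to 60.7% in the 8 numbered 40 and above. Mice under 20 made up 3 of 6 in FED-CTRL and 4 of 6 in FED-HFD but 2 of 6 in either CR20 group, and the part of this imbalance in the group order was not tested. In liver it was 55.6% over CTRL mice, from 205 Meg3 counts in all, and 39.8% over HFD mice.

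**Figure D3:**
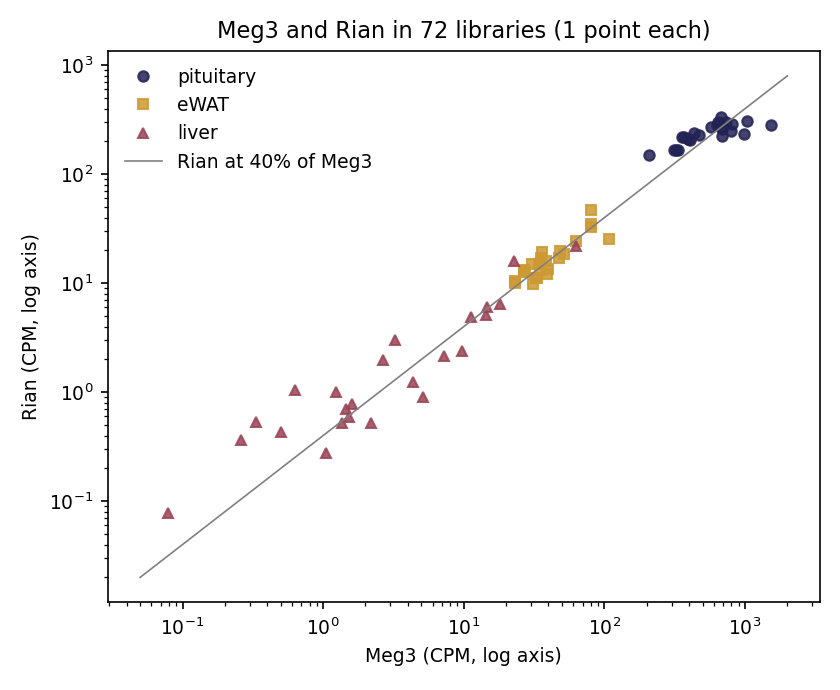
Rian against Meg3 in every library, both in CPM on log axes, with tissues marked and a line where Rian is 40% of Meg3. Libraries of the 3 tissues lie along the line over more than 3 orders of magnitude, with the widest scatter among livers.

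In liver, Meg3 and Rian were higher on the high fat diet in both maternal groups, and Mirg, further along the same strand, gave more counts. These are the values that chose the genes. Meg3 in FED-CTRL livers ranged from 0.262 to 1.61 CPM with a median of 1.15, from 5 to 29 counts per library. In FED-HFD livers it ranged from 4.34 to 22.8 CPM with a median of 10.4. In CR20-CTRL livers it ranged from 0.0786 to 2.18 CPM, median 0.979, and in CR20-HFD livers from 2.64 to 62.5 CPM, median 9.86. Every HFD liver was thus above every CTRL liver, including those of the other maternal group. The share of all liver genes that separate the diets in this way was not counted, so nothing is read from it. The mean was 11.6 ± 6.48 CPM (SD, n = 6) against 1.03 ± 0.499 in FED mice, a ratio of 11.3, and 17.7 ± 22.8 against 1.01 ± 0.827 in CR20 mice, a ratio of 17.5.

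Rian, the host of box C/D snoRNAs downstream of Meg3, ranged from 0.278 to 1.04 CPM in FED-CTRL livers (median 0.653) and from 1.23 to 16.0 CPM in FED-HFD livers (median 3.63). In CR20 mice it ranged from 0.0786 to 0.703 CPM on CTRL (median 0.524) and from 0.898 to 21.8 CPM on HFD (median 4.52). The diets did not overlap within a maternal group, but the lowest HFD liver, 0.898 CPM, was below the highest CTRL liver, 1.04 CPM, when the groups were pooled. The share of all liver genes without overlap within a maternal group was not counted either. The ratio of means was 7.94 in FED mice and 14.1 in CR20 mice.

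Mirg was near the floor. It had 0 to 4 counts in FED-CTRL livers and 0 to 6 in CR20-CTRL livers, with 4 of 6 libraries at 0 in either group. On HFD it had 0 to 13 counts in FED mice and 0 to 24 in CR20 mice, with 1 of 6 at 0 in either group. The groups overlapped, and the sum was 13 counts over 12 CTRL livers and 88 counts over 12 HFD livers, although the HFD libraries were the shallower ones. The same mice led the noncoding RNAs: mouse 7 was highest for Meg3 (62.5 CPM), Rian (21.8 CPM) and Mirg (1.41 CPM), and mouse 40 was the next highest for Meg3 (22.8 CPM) and Rian (16.0 CPM).

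**Figure D4:**
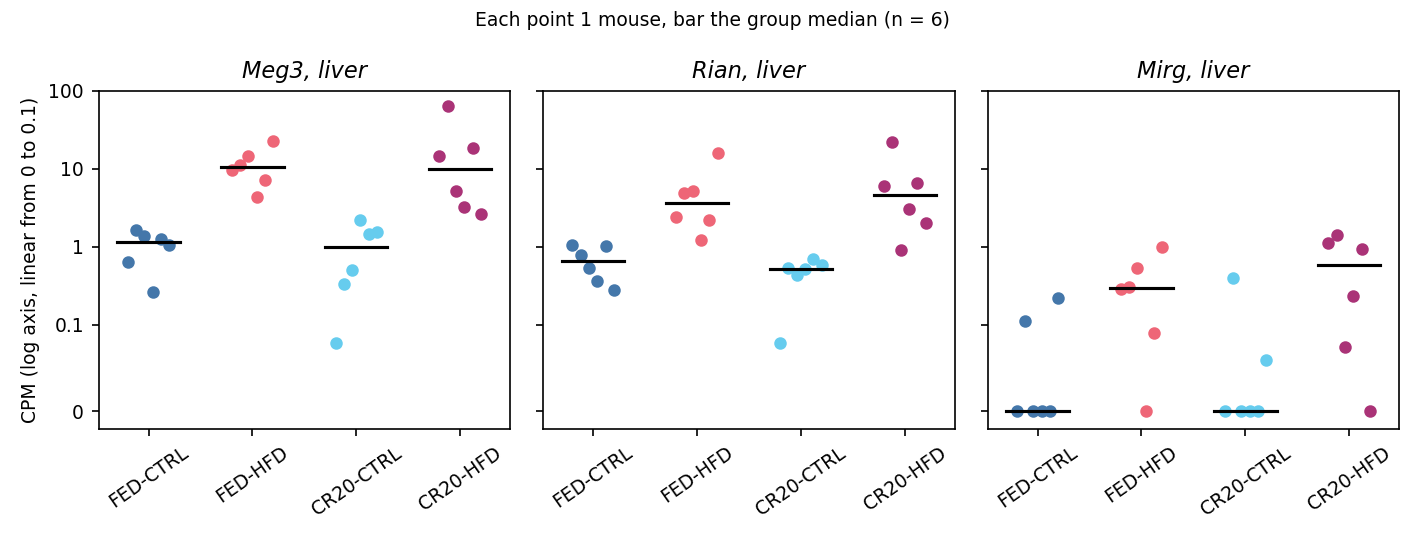
Liver values of Meg3, Rian and Mirg in each of the 24 mice by group in CPM, with group medians. The 12 HFD livers lie above the 12 CTRL livers for Meg3, while Mirg overlaps between diets. Dlk1, Rtl1 and Dio3, at 8 counts or fewer in every library, are not drawn.

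The fitted log2 fold change of Meg3 between HFD and CTRL livers was 3.53 ± 0.70 (SE) in FED and 4.01 ± 0.70 in CR20 mice, and that of Rian 2.97 ± 0.67 and 3.69 ± 0.69. Without mouse 7 the CR20 values were 2.99 for Meg3 and 2.83 for Rian, and without mouse 40 the FED values were 3.26 and 2.28. At adjusted p under 0.055 and an absolute log2 fold change of at least 0.58, the study's thresholds, 1 of the 2 tested genes passed in FED mice, 2 of 2 in CR20 mice and 2 of 2 for the average of both. Over all 13787 genes tested in liver, 0.109%, 0.522% and 1.26% passed in these comparisons. These counts only describe the contrast that chose the genes and nothing is read from them. The filter on low counts asked for 0.691 CPM in at least 6 livers. Meg3 reached this in 7 of 12 CTRL livers and 12 of 12 HFD livers, but Rian in 4 of 12 and 12 of 12, so that Rian passed through the HFD livers.

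The protein-coding genes of the domain were not tested in liver. Dlk1 had 0 to 4 counts per liver and 21 in all, Dio3 had 0 to 8 and 35 in all, and Rtl1 had 1 count in 1 FED-HFD liver and 0 in the other 23. For Rtl1 a library's floor of 3 counts leaves levels of up to 0.151 to 0.305 CPM undetected, a limit that covers counting error only.

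No difference of Meg3 or Rian between the maternal groups passed the test in liver. Between CR20-CTRL and FED-CTRL livers the log2 fold change was 0.06 ± 0.73 for Meg3 and -0.43 ± 0.75 for Rian. Between CR20-HFD and FED-HFD livers it was 0.54 ± 0.59 (95% interval -0.70 to 1.78) for Meg3 and 0.30 ± 0.58 (-0.91 to 1.5) for Rian, and without mouse 7 these were -0.48 and -0.57. The difference between CTRL livers rests on few counts, for Rian above all. The interaction, the diet effect in CR20 minus that in FED mice, is made of the contrasts that chose the genes and is given with no test: it was 0.48 ± 0.95 (-1.51 to 2.47) for Meg3 and 0.72 ± 0.95 (-1.25 to 2.70) for Rian, and -0.54 and -0.15 without mouse 7. Of the 6 maternal tests, which include the average of both diets, 0 passed (edgeR quasi-likelihood test, adjusted p of 0.999 or more), 0 of 6 had an unadjusted p under 0.05, and DESeq2 and limma voom also called 0. Of all liver genes 0% passed in the maternal comparisons and the interaction. These intervals are wide, and differences inside them were not detectable at this depth and spread.

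Markers of hepatocytes and of other cell types were read in the same livers. The 5 hepatocyte markers summed to 64789 to 111770 CPM in CTRL and 79116 to 106010 CPM in HFD livers. The 7 markers of stellate cells and fibroblasts summed to 167 to 313 CPM in CTRL and 138 to 230 CPM in HFD livers, with group-centred correlations of -0.36 with liver Meg3 and -0.51 with Rian. The 5 endothelial markers summed to 47.1 to 101 and 25.5 to 97.0 CPM. The 3 neuron markers were somewhat higher on HFD, 14.5 to 24.5 against 12.6 to 16.4 CPM, and their group-centred correlation with liver Meg3 was 0.55, given as a description. The 8 pituitary markers, led by Gh, summed to 0.864 to 22.9 CPM in CTRL and 0.821 to 17.5 CPM in HFD livers, with a group-centred correlation with Meg3 of -0.06. The 6 adipocyte markers summed to 12.8 to 27.7 CPM in CTRL and 13.3 to 34.1 CPM in HFD livers, with a group-centred correlation with Meg3 of 0.46. The part of these cell types in the diet difference was not tested.

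In pituitary, the tissue with the most RNA of the domain, no gene changed with diet or maternal feeding after adjustment, and Meg3 and Rtl1 came nearest in the maternal comparisons. Over 7 comparisons and 5 tested genes, edgeR called 0 of 35 tests, 4 had an unadjusted p under 0.05, and DESeq2 and limma voom called 0. The background was low as well: 0% of 16657 genes passed in the 4 pairwise comparisons, the interaction and the maternal average, and 0.006% (1 gene) in the diet average. DESeq2 called 0 to 54 genes in these comparisons and limma voom with quality weights 0 to 72, none of them of the domain.

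Meg3 ranged from 315 to 1532 CPM in FED-CTRL pituitaries (median 599), from 407 to 1031 in FED-HFD (median 655), from 370 to 810 in CR20-CTRL (median 505) and from 208 to 690 in CR20-HFD (median 376). All groups overlapped. CR20-HFD was below FED-HFD by a log2 fold change of -0.67 ± 0.30 (95% interval -1.30 to -0.05, unadjusted p = 0.0323, adjusted p = 0.710, edgeR), and an exact two-sided permutation test over the mice gave p = 0.0411. The average maternal effect was -0.53 ± 0.21 (adjusted p = 0.296).

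Rtl1, read from the opposite strand, had a higher median in CR20-CTRL than in FED-CTRL pituitaries, a maternal comparison other than that of Meg3 above. It ranged from 8.45 to 14.0 CPM in FED-CTRL (median 10.8) and from 11.2 to 16.4 CPM in CR20-CTRL pituitaries (median 14.4), with overlap. The log2 fold change was 0.39 ± 0.14 (0.09 to 0.69, unadjusted p = 0.0121, adjusted p = 0.175, edgeR), with an exact permutation p of 0.0368. In FED-HFD and CR20-HFD mice the Rtl1 medians were 11.4 and 12.8 CPM, and CR20-HFD minus FED-HFD was 0.03 in mean log2 CPM. For Meg3, CR20-CTRL minus FED-CTRL was -0.22 in mean log2 CPM. Of 44 exact permutation tests of single genes over all tissues, each over 924 splits, 3 were under 0.05, and none was adjusted for their number.

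Dlk1 was the steadiest of the genes. Its range was 2533 to 3294 CPM in FED-CTRL, 2389 to 2872 in FED-HFD, 2716 to 3452 in CR20-CTRL and 2595 to 3017 in CR20-HFD pituitaries. The diet changed it by -0.13 ± 0.09 in FED and -0.08 ± 0.09 in CR20 mice on the log2 scale, and the maternal average by 0.12 ± 0.06 (adjusted p = 0.390), none past the threshold. With these errors, diet effects beyond -0.31 to 0.05 in FED mice lay outside the 95% interval. Rian had group medians of 232, 277, 231 and 214 CPM in FED-CTRL, FED-HFD, CR20-CTRL and CR20-HFD, and Mirg of 13.5, 19.0, 19.2 and 12.1 CPM. For both, the diet difference had opposite signs in the maternal groups, with interactions of -0.37 ± 0.20 for Rian (adjusted p = 0.505) and -0.74 ± 0.39 for Mirg (adjusted p = 0.483) that did not pass. Dio3 had 0 to 5 counts per pituitary, 52 in all, and was not tested.

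**Figure D5:**
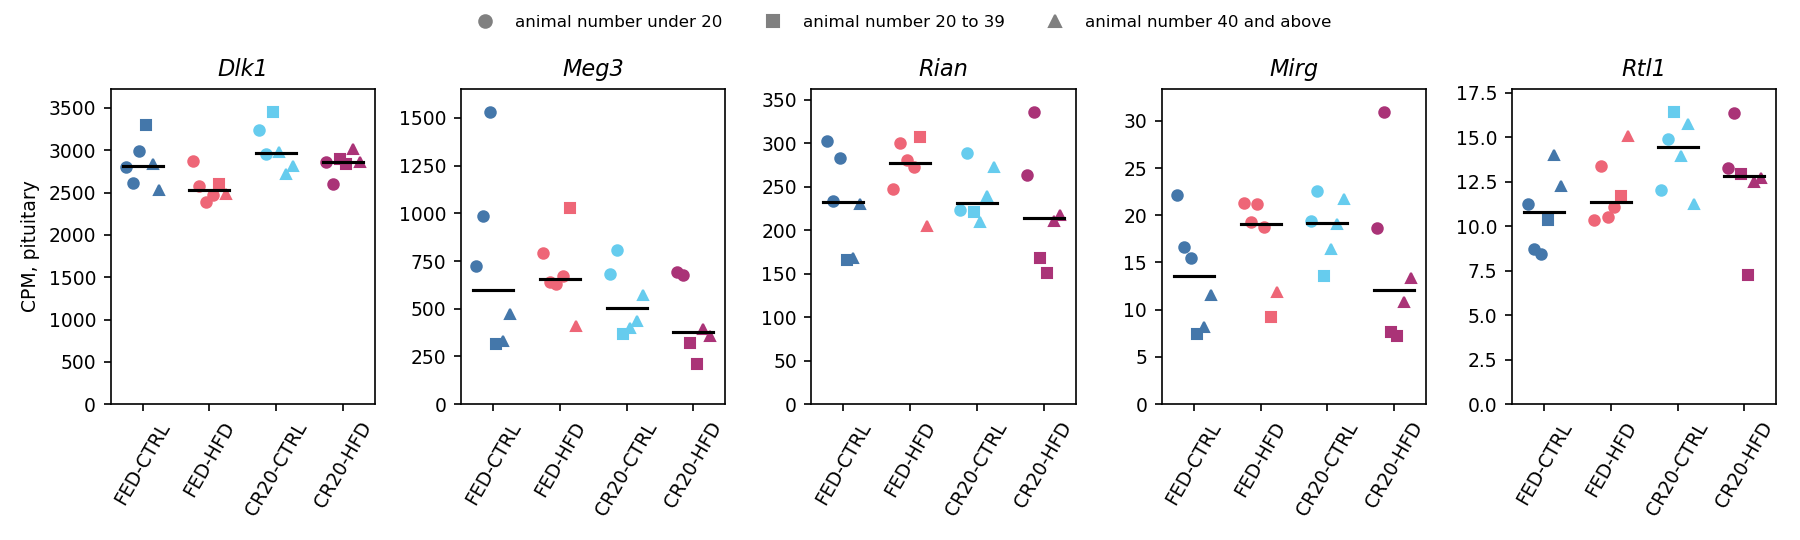
Pituitary values of Dlk1, Meg3, Rian, Mirg and Rtl1 in each mouse by group in CPM, with the range of the animal number shown by the point's shape. Meg3 is at 632 CPM or more in all 11 animals numbered under 20, whereas Dlk1 has medians between 2798 and 2898 CPM in the 3 ranges.

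The noncoding RNAs of the pituitary also moved with the animal number, which runs in 3 stretches (4 to 16, 23 to 33 and 40 to 49) whose meaning the labels do not give. Meg3 was at 632 to 1532 CPM in the 11 mice numbered under 20, at 208 to 1031 CPM in the 5 numbered 20 to 39 and at 333 to 573 CPM in the 8 numbered 40 and above, so that the first and last ranges did not overlap. Rian was at 223 to 336, 151 to 307 and 168 to 272 CPM, and Mirg at 15.5 to 30.9, 7.25 to 13.6 and 8.22 to 21.7 CPM. Dlk1 was alike, with medians of 2798, 2898 and 2827 CPM. FED-HFD held 4 and CR20-HFD 2 mice numbered under 20.

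Within these ranges, the Meg3 difference of CR20-HFD minus FED-HFD was -0.11 on the log2 CPM scale under 20 (2 against 4 mice), -1.83 from 20 to 39 (2 against 1) and -0.02 from 40 up (2 against 1). It was far from 0 in the middle range, which holds 1 FED-HFD mouse, and near 0 in the other ranges. With the range as a covariate the fitted value was -0.51 (adjusted p = 0.772). The Rtl1 difference of CR20-CTRL minus FED-CTRL was 0.59 (2 against 3 mice), 0.53 (1 against 1) and 0.05 (3 against 2), and 0.37 with the covariate (adjusted p = 0.169).

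In eWAT, Meg3 and Rian were read in every mouse at medians near 40 and 15 CPM, and no gene of the domain changed past the thresholds in any comparison. Over 35 tests edgeR called 0, 1 had an unadjusted p under 0.05, and DESeq2 and limma voom called 0. With 5 genes tested, a count of 0 is near the share of all genes called and does not set the domain apart: 8.01% of 15964 genes passed between FED-HFD and FED-CTRL, 9.73% between CR20-HFD and FED-HFD, 2.42% in the interaction, 3.96% in the maternal average and 0.175% in the diet average, but 0% between CR20-HFD and CR20-CTRL and between CR20-CTRL and FED-CTRL. These counts leaned on a few libraries. Without mice 5, 13 and 23, whose libraries held neuron or few adipocyte markers, the number of genes called went from 1278 to 495 between FED-HFD and FED-CTRL, from 1554 to 718 between CR20-HFD and FED-HFD, from 632 to 271 in the maternal average and from 28 to 59 in the diet average. Without mice 4, 5 and 6, whose libraries held epididymal markers, the diet average had 82. The interaction had 387 calls with all libraries and 0 without either set or both. Macrophage markers moved with the same contrast: 5 of them summed to 293 to 1543 CPM in FED-HFD eWAT, beside 120 to 202 CPM in FED-CTRL, 83.9 to 231 CPM in CR20-CTRL and 103 to 182 CPM in CR20-HFD, so that FED-HFD lay above every other group. Their part in the eWAT results below was not tested.

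Meg3 ranged from 27.5 to 51.6 CPM in FED-CTRL eWAT (median 34.6), from 23.3 to 107 in FED-HFD (median 37.2), from 26.8 to 79.9 in CR20-CTRL (median 43.3) and from 23.2 to 80.3 in CR20-HFD (median 35.3). The groups overlapped throughout. The diet difference in FED mice was 0.46 ± 0.35 for Meg3, 0.42 ± 0.34 for Rian and 0.63 ± 0.45 for Mirg on the log2 scale. Without mice 5, 13 and 23 it was -0.16 for Meg3, -0.13 for Rian and 0.08 for Mirg. The maternal average moved the other way when both sets of libraries were left out, from 0.06 to 0.54 for Meg3 (unadjusted p = 0.0186) and from 0.04 to 0.48 for Rian (unadjusted p = 0.0395), and the CR20-HFD to FED-HFD difference of Meg3 from -0.19 to 0.59. That CR20-HFD to FED-HFD difference also went from -0.19 to 0.50 for Rian, from -0.19 to 0.49 for Mirg and from -0.19 to 0.55 for Dlk1. No gene of the domain was called in these fits either (edgeR, lowest adjusted p = 0.142). Rian had group medians between 13.2 and 16.6 CPM and Mirg between 0.907 and 1.15 CPM. Across eWAT libraries Meg3 and Rian moved with the summed stellate and fibroblast markers, with group-centred correlations of 0.71 and 0.82 over 24 libraries, given as a description.

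Dlk1, a marker of fat cell precursors, was near the floor in adult eWAT and varied more than the noncoding RNAs. It ranged from 0.180 to 0.709 CPM in FED-CTRL (median 0.275, 4 to 14 counts) and from 0.266 to 4.49 CPM in CR20-CTRL (median 1.10, 5 to 52 counts), with overlap. In FED-HFD it ranged from 0 to 2.72 CPM (median 0.473) and in CR20-HFD from 0.257 to 1.63 CPM (median 0.530). The CR20-CTRL to FED-CTRL log2 fold change was 1.84 ± 0.72 (0.34 to 3.33, unadjusted p = 0.0175, adjusted p = 0.502, edgeR), and it was 0.90 without mice 4, 5 and 6, which carried epididymal markers, and 1.26 without mouse 5 alone. Dlk1 also moved with the summed endothelial markers of eWAT (group-centred r = 0.63), and the value for adipose progenitor markers was -0.29, given as descriptions. Values for other marker lists ran from -0.39 (stellate cells and fibroblasts) to 0.62 (posterior lobe of the pituitary). Somatotrope markers gave 0.46, neuron markers 0.44 and those of epididymis and testis 0.43. Pituitary markers summed to 1.22 to 23.0 CPM in eWAT libraries, and their part in the Dlk1 values was not tested. The endothelial markers summed to 231 to 736 CPM in CR20-CTRL and 279 to 567 CPM in FED-CTRL libraries, with the highest sum in mouse 5, and their part in the difference was not tested. The interaction of -2.02 ± 1.01 did not pass (adjusted p = 0.291), and it was -0.99 without mice 4, 5 and 6, -0.84 without mice 5, 13 and 23 and -0.36 without both sets.

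Dio3, the other gene of low level, ranged from 0.180 to 0.522 CPM in FED-CTRL (median 0.293) and from 0.304 to 1.49 CPM in FED-HFD eWAT (median 0.531). Its log2 fold change was 0.93 ± 0.56 (adjusted p = 0.307), with an exact permutation p of 0.0455, and it was 0.41 without mice 5, 13 and 23. In CR20 mice the medians were 0.521 CPM on CTRL and 0.475 CPM on HFD, and the difference was -0.12 ± 0.54, with the other sign without mice 4, 5 and 6 (0.43), without mice 5, 13 and 23 (0.03) and without both sets (0.43). Rtl1 had 0 to 13 counts per library and was not tested.

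The noncoding RNAs varied together from mouse to mouse, apart from any group difference, in part along with the animal number. Correlations were taken over 24 mice on log2 CPM after subtracting the group means, for 21 pairs, with permutation p-values from 100000 draws adjusted over the pairs, and 6 of the 20 pairs outside liver had an adjusted p under 0.05, all of them pairs of noncoding RNAs. The liver pair of Meg3 and Rian is among the 21. Adjusted over the other 20 alone, the number was 6 as well, with adjusted p from 0.0003 to 0.0083. Meg3 and Rian had r = 0.799 in pituitary (rho = 0.773, adjusted p = 0.000462 for r) and r = 0.875 in eWAT (rho = 0.877, adjusted p = 0.000315). Without the 2 mice farthest from the median these were 0.763 and 0.886. Rian and Mirg had r = 0.821 in pituitary (rho = 0.783, adjusted p = 0.000315; 0.749 without 2 mice) and r = 0.797 in eWAT (rho = 0.793, adjusted p = 0.000315; 0.777 without 2 mice). Meg3 and Mirg, the pair farthest apart, had r = 0.640 in pituitary (rho = 0.688, adjusted p = 0.00747) and 0.720 in eWAT (rho = 0.741, adjusted p = 0.00063), and 0.631 and 0.717 without 2 mice.

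In eWAT these RNAs also moved with markers of other cells. Group-centred correlations with the fibroblast markers were 0.71 for Meg3, 0.82 for Rian and 0.73 for Mirg, with the adipose progenitor markers 0.50, 0.62 and 0.58, and with the adipocyte markers -0.30, -0.51 and -0.41, given as descriptions. The part of these cells in the co-variation was not tested. Without mice 4, 5, 6, 13 and 23, r was 0.896 for Meg3 and Rian, 0.701 for Rian and Mirg and 0.682 for Meg3 and Mirg over 19 mice.

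The noncoding RNAs of eWAT differed by animal number range as well, in the order opposite to that in pituitary. The mean log2 CPM was 5.09 under 20, 5.73 from 20 to 39 and 5.47 from 40 up for Meg3, 3.73, 4.57 and 4.17 for Rian, and -0.30, 0.78 and 0.31 for Mirg, with overlap between ranges. With the range removed along with the group, r in eWAT was 0.845 for Meg3 and Rian, 0.657 for Rian and Mirg and 0.617 for Meg3 and Mirg. In pituitary it was 0.589 for Meg3 and Rian, 0.620 for Rian and Mirg and 0.0241 for Meg3 and Mirg, so that the last pair's relation did not hold. Within the 11 pituitaries of mice under 20 these pairs had r of 0.347, 0.728 and 0.0655, and within the 8 from 40 up 0.923, 0.907 and 0.863, while 5 mice were too few for the middle range. These values carry no test and were chosen after the data were seen.

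In liver, Meg3 and Rian had r = 0.776 within groups (rho = 0.719), and 0.664 without mice 4 and 7, given as a description because liver values chose the pair. The correlations of Dlk1 in pituitary were from -0.29 to 0.02 with the other 4 genes, and those of Rtl1 from -0.23 to 0.07, none past the threshold. In eWAT Dlk1 had r = -0.475 with Rian (unadjusted permutation p = 0.0434, adjusted p = 0.114), and -0.239 with the animal number range removed. Dio3 and Rian in eWAT had r = -0.346 (adjusted p = 0.293) and -0.584 without mice 23 and 31 (adjusted permutation p = 0.0201), but -0.167 over all mice with the range removed.

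Among all tested genes, the RNA most like Meg3 in eWAT was Rian (group-centred r = 0.875 over 24 mice), and Meg3 was first for Rian and Rian first for Mirg (r = 0.797). In liver, Rian stood at rank 3 for Meg3, after Ttll3 (r = 0.79) and Firre (r = 0.78), and Meg3 was first for Rian. Pituitary differed: there the genes most like Meg3 were Neat1 (r = 0.94), Kmt2d (r = 0.94), Firre (r = 0.94) and Spaca6 (r = 0.94). Rian stood at rank 71 and Mirg at rank 325 of 16656. The genes most like Rian in pituitary were led by Ccnl2 (r = 0.91), with Mirg at rank 25 and Meg3 at rank 45. Those most like Mirg were led by Sugp2 (r = 0.90), with Rian at rank 18 and Meg3 at rank 278. The gene most like Dlk1 was Emc10 in pituitary (r = 0.84) and Sptb in eWAT (r = 0.85), the one most like Rtl1 in pituitary was Sertad1 (r = 0.84), and the one most like Dio3 in eWAT was Bmper (r = 0.855). These are the highest of many correlations and carry no test.

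Of the other genes of the count table inside the domain, 2 could be tested in pituitary (Gm34081 and Gm3379), 2 in eWAT (Dio3os and Gm3379) and 1 in liver (Dio3os), and edgeR called none in 7 comparisons. Dio3os, the antisense neighbour of Dio3, had a maternal average of 0.92 ± 0.37 on the log2 scale in eWAT (unadjusted p = 0.0207, adjusted p = 0.129, edgeR). The 5 nearest protein-coding genes on either side served as a comparison from outside the domain. In pituitary 0 of 10 and in liver 0 of 8 tested were called, and in eWAT 1 was, Slc25a29, a mitochondrial amino acid carrier, with 1.07 ± 0.25 between CR20-HFD and FED-HFD (adjusted p = 0.00619, edgeR) and 0.68 ± 0.18 in the maternal average. This is 1 of 10 genes, beside 9.73% and 3.96% of all genes called. It stayed called in both without mice 4, 5 and 6, without mice 5, 13 and 23 and without both sets.

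Partners of the domain's proteins and the factors that maintain imprints were also read. In pituitary 0 of 18 tested genes of the Notch list, 0 of 12 of the thyroid hormone list and 0 of 16 of the imprint control and Polycomb list were called in any comparison. The nearest was Trhr, the receptor for thyrotropin-releasing hormone, at 0.80 ± 0.20 between CR20-CTRL and FED-CTRL (adjusted p = 0.0725, edgeR).

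In eWAT, 2 of 18 genes of the Notch list were lower in FED-HFD than in FED-CTRL mice, where 8.01% of all genes were called, the Notch target Hes1 (-0.79 ± 0.22) and the ligand Jag1 (-0.59 ± 0.18), and the list's median was -0.45 beside -0.00164 over all genes. Between CR20-HFD and FED-HFD mice Hes1 was higher (0.79 ± 0.22), 1 of 18 beside 9.73% of all genes, with a list median of 0.43 beside 0.0216. In the imprint control list, 3 of 17 were higher in FED-HFD than in FED-CTRL mice, the maintenance methyltransferase Dnmt1 (0.75 ± 0.22), the de novo methyltransferase Dnmt3a (1.18 ± 0.27) and Uhrf1, which guides Dnmt1 to newly copied DNA (0.98 ± 0.27). Between CR20-HFD and FED-HFD mice the called genes of the list were again Dnmt1 (-0.80 ± 0.22), Dnmt3a (-1.37 ± 0.27) and Uhrf1 (-0.78 ± 0.27), all with negative values, and these 2 comparisons share the FED-HFD libraries. The interaction was called for Dnmt3a (-1.45 ± 0.37, adjusted p = 0.0426, edgeR). The list's median was 0.08 and then -0.08 in these comparisons. Of the thyroid hormone list, 3 of 9 changed in FED mice on HFD, beside 8.01% of all genes: the activating deiodinase Dio2 rose (1.81 ± 0.57) and the receptor Thra (-0.59 ± 0.09) and the corepressor Hr (-1.00 ± 0.31) fell, with a list median of -0.27. Between CR20-HFD and FED-HFD mice 1 of 9 was called, Thra (0.69 ± 0.09, adjusted p = 0.000522, edgeR). In the maternal average, where 3.96% of all genes were called, Hes1 (0.59 ± 0.16) and Sox9 (1.33 ± 0.38) of the Notch list were higher in CR20 mice and Dnmt3a (-0.64 ± 0.19) of the imprint control list was lower.

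Of these eWAT calls, those of Hes1 between FED-HFD and either FED-CTRL or CR20-HFD and that of Dnmt3a between CR20-HFD and FED-HFD stayed without mice 4, 5 and 6, without mice 5, 13 and 23 and without both sets. The Dnmt3a interaction was called in none of these fits, at -1.39, -0.81 and -0.82 (adjusted p = 0.166, 0.199 and 0.299, edgeR). Without mice 5, 13 and 23 the FED diet difference was 0.32 for Dnmt1, 0.49 for Uhrf1, -0.49 for Jag1, 0.98 for Dio2, -0.84 for Hr and -0.47 for Thra, none of them called, and 0.64 for Dnmt3a, which was called there but not without both sets (0.62, adjusted p = 0.0730, edgeR). Between CR20-HFD and FED-HFD the values without those mice were -0.36 for Dnmt1, -0.28 for Uhrf1 and 0.57 for Thra, which were not called. In the maternal average, Hes1 and Sox9 were called in none of the 3 fits, with 0.49 and 0.69 without mice 5, 13 and 23, and Dnmt3a was called without mice 4, 5 and 6 (-0.71) but not without mice 5, 13 and 23 (-0.43) or both sets (-0.42).

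In liver, 0 of 15 genes of the Notch list and 0 of 15 of the imprint control list were called in any comparison. Of the thyroid hormone list, the lipogenic gene Me1 was lower on HFD in FED mice (-1.43 ± 0.24, adjusted p = 0.0119) and in CR20 mice (-2.08 ± 0.24, adjusted p = 6.05e-05, edgeR). Thrsp, a thyroid hormone responsive gene of fat synthesis, was lower in the diet average (-1.42 ± 0.26, adjusted p = 0.00293). These were 1 of 9, 1 of 9 and, with Me1, 2 of 9 genes tested, beside 0.109%, 0.522% and 1.26% of all genes, and the list's median was -0.05 in the diet average beside -0.00601 over all genes.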

How the data were processed

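Libraries were made with a stranded total RNA kit (TruSeq Stranded Total RNA Gold, while the methods also name a stranded mRNA kit). Per the submitters' processing notes and methods, the authors trimmed reads with Trimmomatic, checked them with FastQC, aligned them with STAR to GRCm39 and counted them with Subread featureCounts, and the strand setting was not given in the sources used here. The deposited values were raw counts per Ensembl gene and library, not normalized. Liver RNA and the other RNAs were extracted with different kits, so levels across tissues carry that difference. Of 55416 genes, 54749 matched GENCODE M39, which gave positions and merged exon lengths. No per-sample column was left unused. The Rtl1 exons share 627 bases with 7 microRNA genes of the other strand.

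Each tissue was fitted alone over 24 libraries (4 groups of 6) with edgeR 4.0.16 (filterByExpr, TMM, quasi-likelihood F-test, two-sided, Benjamini-Hochberg over all genes tested) in R 4.3.3. A gene was called at adjusted p under 0.055 and absolute log2 fold change of at least 0.58. CPM were counts scaled to a library total of 1000000. Log2 CPM used TMM sizes and a prior count of 2, and intervals are 95%. Correlations and permutation tests used scipy 1.17.1. Alternatives were DESeq2 1.42.0, limma 3.58.1 voom with and without quality weights, other size factors, filters, thresholds and a robust prior, the animal number range as a covariate, fits of 2 groups, each mouse left out, and, chosen after seeing the data, eWAT without libraries holding other cell types' markers. The scripts were tested on simulated data. The genes, lists and naming rule (genes called, otherwise those with the smallest p, and the 5 most alike) were chosen with earlier results of these data known. Promoter and microRNA sequences are RefSeq's for GRCm38.p6, placed on GRCm39 by sequence match.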

Additional observations from a re-analysis of the deposited data

Results flagged for a closer look

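In 48 groups of 6 mice, the highest and the lowest mouse were compared with the rest of their group by the gap to the nearest mouse over the group's whole range on the log2 CPM scale, against Dixon's critical value, which chance passes in about 1 of 20 groups. Of these groups, 2 had a mouse apart. Rian in the liver of CR20-CTRL mouse 4 was lowest, with 1 count (0.0786 CPM) beside 0.431 CPM in the nearest mouse, a ratio of 0.723. That liver had 1 Meg3 count as well and was the lowest of 24 for both RNAs. Rtl1 in the pituitary of CR20-HFD mouse 32 was lowest, with 143 counts (7.25 CPM) beside 12.7 CPM in the mouse nearest to it after normalization, a ratio of 0.756.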

How the results depend on the processing

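No analysis paired by litter was made, because the groups hold different mice and their litters were not given. The liver counts below describe the contrast that chose the genes, and nothing is read from them. In liver, the number of the 2 tested genes called between CR20-HFD and CR20-CTRL mice was 2, and it was 1 with voom and quality weights, 0 with voom without them and 0 with only the groups compared. Between FED-HFD and FED-CTRL mice it was 1, and it was 2 with DESeq2, 2 without a filter, 2 with only the groups compared and 0 with voom with or without quality weights. Leaving out 1 mouse at a time gave 0 to 1 there. The cause was not tested. All 154 recomputed liver diet log2 fold changes were positive, from 2.28 to 4.37. Outside the liver diet comparisons, 2176 recomputed values held no call (smallest adjusted p 0.0654), and 119 of 2072 log2 fold changes, belonging to 31 of 78 results, took the other sign. Depth limits Dlk1, Mirg, Rtl1 and Dio3 in liver, Dio3 in pituitary and Rtl1 in eWAT, whose libraries hold few counts.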

Other observations

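In pituitary and eWAT, Meg3 and Rian were more variable than most genes of their level. After subtracting group means, the SD of log2 CPM of Meg3 exceeded that of 99.6% of the 2000 genes nearest in level in pituitary and 97.3% in eWAT. For Rian the shares were 97.2% and 95.7%, and for Mirg 99.4% in pituitary and 74.5% in eWAT. Dlk1, read from the other parental chromosome, exceeded 70.9% in pituitary and 91.8% in eWAT. All these values include the differences between animal number ranges and, in eWAT, the libraries of mice 4, 5, 6, 13 and 23.

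The genes most like Meg3 in pituitary were not so in the other tissues. The group-centred correlation with Meg3 over 24 mice was 0.94 for Neat1, 0.94 for Kmt2d, 0.94 for Firre and 0.86 for Malat1 in pituitary. In eWAT the values were -0.04, 0.31, -0.32 and 0.24, and in liver 0.53, 0.41, 0.78 and 0.56. Neat1, Kmt2d and Firre lead because they were picked as the highest pituitary correlations, Malat1 was chosen after its values were seen, and the pituitary values include the difference between animal number ranges.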
